A study of Mus musculus with 22 samples.

Results

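The intergenic sites of C/EBP beta that were called after dDAVP and not after vehicle were described in mpkCCD cells, which were derived from the cortical collecting duct of a mouse kidney. A site belonged to the set when its peak in the dDAVP list overlapped no peak of the vehicle list by 1 bp or more, when its centre lay outside every protein-coding gene, and when that centre was more than 1000 bp and at most 50000 bp from the nearest end of such a gene. The rule gave 632 sites, which were 26.3% of the 2401 C/EBP beta peaks after dDAVP and 28.8% of those without a vehicle peak. All cells were of 1 clone, clone 11. They had been grown with insulin, dexamethasone and EGF, were moved to medium without serum or hormones, and were then given 0.1 nM dDAVP, a vasopressin analog selective for the V2 receptor, or its vehicle, each for 30 min. The dDAVP list rested on 2 immunoprecipitated samples, as did the vehicle list of 209 peaks, and CREB1 was mapped in the same cells with 4 samples per treatment. Each group had 1 deposited peak list, so no value below has a replicate error, and no test of the treatment could be made. Read depth is unknown. Where the vehicle list has no peak, none was called, and binding below the calling threshold cannot be told apart from no binding.

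C/EBP beta is a leucine zipper factor that binds DNA as a dimer, on a palindrome of a pair of half-sites, and it can pair with ATF4 on a composite of a C/EBP and an ATF half-site. It acts in acute phase, cytokine and stress responses and in the differentiation of several tissues. Vasopressin acts on collecting duct cells through the V2 receptor, cAMP and protein kinase A. Sites outside genes can lie in enhancers, as can sites inside genes, but a peak alone does not show enhancer activity or which gene it serves. The nearest protein-coding gene is therefore given as a position and not as a target.

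Sequence could be shown for 7 of the 632 sites, those whose central 100 bp fall inside a promoter window of the RefSeq table for GRCm38.p6, the mm10 build. All 7 windows belong to long non-coding RNA genes, and the sites were chosen by this coverage alone. The stretches are given on the plus strand, 5′ to 3′, named by the nearest protein-coding gene, from the highest score to the lowest. Capitals mark the letters TTNCNNAA or TGATGNAA, each searched on both strands. The first is a looser form of the C/EBP palindrome TTGCGCAA and is itself not a palindrome. The second is the composite of C/EBP and ATF factors.

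E2f6 site, chr12:16850979-16851078: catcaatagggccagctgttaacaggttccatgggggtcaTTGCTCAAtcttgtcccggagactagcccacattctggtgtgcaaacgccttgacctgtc
Cyp1b1 site, chr17:79728655-79728754: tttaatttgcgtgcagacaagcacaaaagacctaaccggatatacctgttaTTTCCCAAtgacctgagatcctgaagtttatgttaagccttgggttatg
Galnt2 site, chr8:124196416-124196515: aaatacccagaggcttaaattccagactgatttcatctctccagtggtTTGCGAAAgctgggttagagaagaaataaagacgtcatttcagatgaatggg
Mrpl33 site, chr5:31596794-31596893: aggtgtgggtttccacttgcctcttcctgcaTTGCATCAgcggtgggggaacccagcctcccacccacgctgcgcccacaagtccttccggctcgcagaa
Mapkapk2 site, chr1:131112693-131112792: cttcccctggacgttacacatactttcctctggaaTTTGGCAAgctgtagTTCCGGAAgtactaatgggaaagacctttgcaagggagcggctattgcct
Ptprm site, chr17:67358626-67358725: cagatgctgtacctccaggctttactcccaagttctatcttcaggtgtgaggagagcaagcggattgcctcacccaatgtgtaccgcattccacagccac
Smtn site, chr11:3566211-3566310: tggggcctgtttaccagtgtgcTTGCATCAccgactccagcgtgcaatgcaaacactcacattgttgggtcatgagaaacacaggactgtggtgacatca

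At E2f6, which encodes a repressor of the E2F family, the word TTGCTCAA began at position -9 from the peak centre, and a match to the grainyhead letters AACNNGTT began at -29. The Cyp1b1 stretch held TTTCCCAA at position 2 and the Galnt2 stretch TTGCGAAA at -1. Near Mrpl33, a mitochondrial ribosomal protein gene, and near Smtn, the smooth muscle protein smoothelin, the composite appeared as TTGCATCA, at -18 and -27. The Mapkapk2 stretch held 2 matches to TTNCNNAA or its reverse, TTTGGCAA and TTCCGGAA. The Ptprm stretch held neither these letters nor the composite.

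In all, 4 of 7 stretches held TTNCNNAA (57.1%), against 16.7% of the middle 100 bp of all 32851 promoter windows. The composite TGATGNAA was in 2 of 7 (28.6%, 95% Wilson interval 8.22 to 64.1), against 1.49% of the windows. Either of the letters was in 6 of 7 (85.7%, 48.7 to 97.4), against 17.9% of the windows. The exact palindrome TTGCGCAA was in 0 of 7, with an upper interval bound of 35.4%, as were the AP-1 letters TGANTCA and the CRE letters TGACGTCA. Among C/EBP beta peaks at gene ends without a vehicle peak, either of the letters was in 74 of 124 (59.7%, 50.9 to 67.9), and among peaks also in the vehicle list in 23 of 25 (92%). The interval of the 7 stretches holds both shares, and a match describes letters in the window, not a bound site.

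The deposited score, the authors' own value for each peak of replicate 1 with no stated scale, had a median of 188 over the 632 sites (95% interval of the median 172 to 199) and ran between 31 and 1181. Only 63 sites (9.97%) scored 500 or more, and 109 (17.2%) scored 100 or less. The median was 191 at gene ends (171 to 213), 169 inside genes (160 to 179) and 170 far from genes (153 to 193), all for peaks without a vehicle peak. The interval of the intergenic sites overlaps each of these 3. Peaks also in the vehicle list had a median of 1104 and a lowest score of 273 in the dDAVP list. The numbers in the replicate 1 peak names ran up to 2707 in the dDAVP list and to 329 in the vehicle list, whose own median score was 131. Of the intergenic sites, 200 (31.6%) scored at or above that lowest value, and 2 scored above 1104. The scores come from the list that chose the sites, so these values describe the set and support no claim about the treatment.

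**Figure D1:**
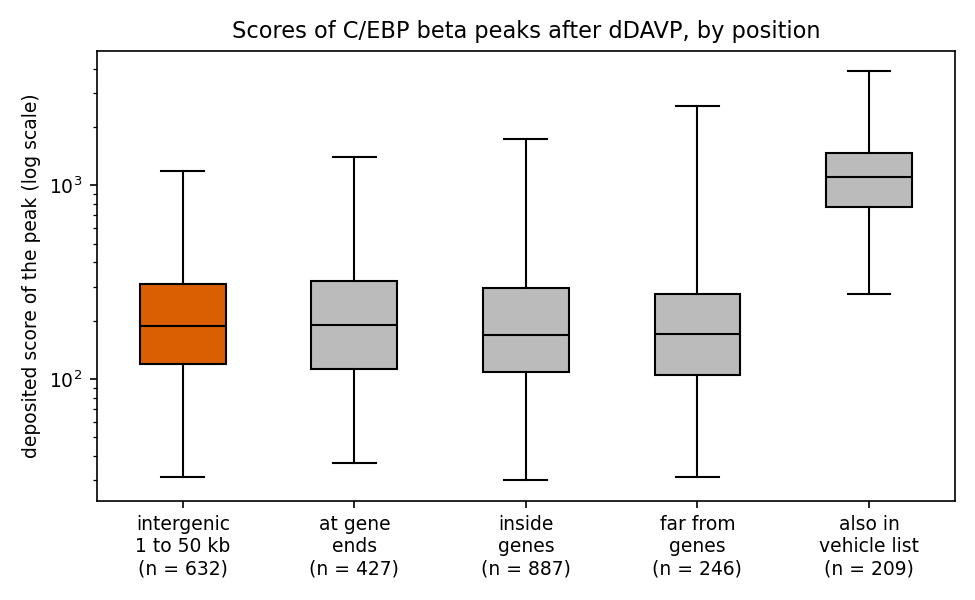
Deposited score (log scale) of C/EBP beta peaks after dDAVP, by position. Boxes give the quartiles and the median, and whiskers the lowest and highest value. The 632 intergenic sites, with a median of 188, sit level with the other peaks that had no vehicle peak and below the 209 peaks that had one, with a median of 1104.

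Median width was 263 bp (257 to 271), and the sites covered 169 kb. The narrowest was a region of 3 bp, chr11:31824908-31824910, with a score of 79, 45195 bp before the start of Cpeb4, which encodes an RNA-binding protein. It was the 1 site under 100 bp. Higher-scoring sites were wider (Spearman correlation 0.755 over the 632 sites, a description over peaks of 1 list), and the same correlation of score with distance to a gene was -0.0388.

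The median distance to a gene end was 11804 bp. Because more of the genome lies at some distances than at others, sites were set against the amount of intergenic sequence at each distance. There were 1.53 sites per Mb at 1 to 5 kb (exact 95% Poisson interval 1.31 to 1.78, 172 sites), 1.05 at 5 to 10 kb (0.857 to 1.26), 1.15 at 10 to 20 kb (0.983 to 1.34), 0.819 at 20 to 30 kb (0.650 to 1.02), 0.896 at 30 to 40 kb (0.696 to 1.14) and 0.624 at 40 to 50 kb (0.441 to 0.856). The closest and the farthest class thus had intervals that do not overlap. Over the whole range the density was 1.06 sites per Mb (0.982 to 1.15), against 5.45 for gene ends (4.95 to 5.99), 0.899 inside genes (0.841 to 0.960) and 0.261 far from genes (0.230 to 0.296). These intervals cover the counting of peaks alone, and assembly gaps were not taken out of the sequence.

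Strand was known for the nearest gene of 489 sites. Of these, 277 lay before the start of the gene and 212 past its end. Per Mb this was 1.09 before the start (0.967 to 1.23) and 0.988 past the end (0.859 to 1.13). The intervals overlap over the whole range, and also within 1 to 5 kb, with 1.67 before the start (1.32 to 2.08) and 1.20 past the end (0.891 to 1.57).

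**Figure D2:**
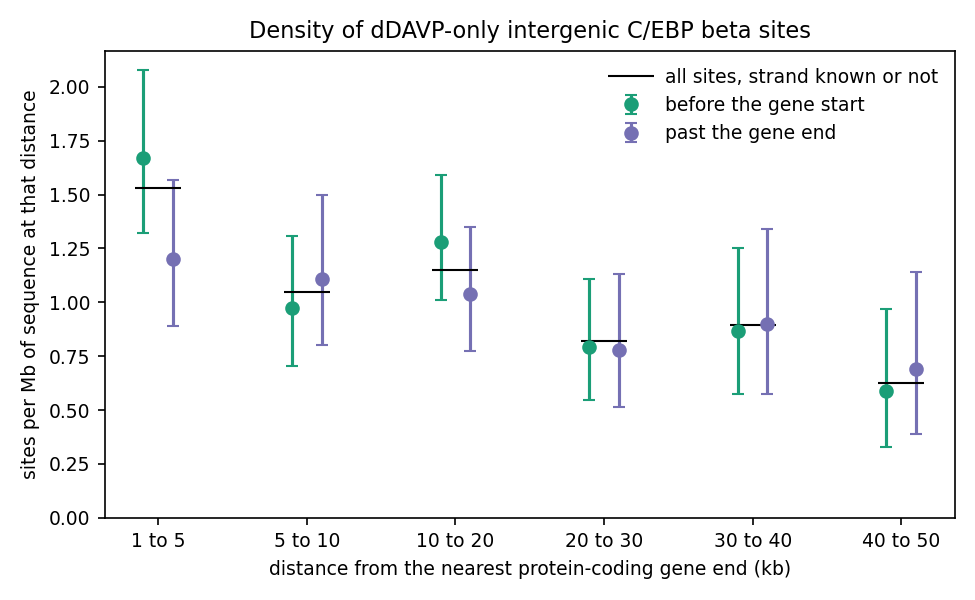
Sites per Mb of intergenic sequence against distance from the nearest protein-coding gene end, for sites before a gene start and past a gene end, with exact 95% Poisson intervals. Black bars give all 632 sites. Density was 1.53 per Mb at 1 to 5 kb and 0.624 at 40 to 50 kb, and the intervals of both sides overlap in every class.

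The highest score, 1181, belonged to chr4:141559107-141559479, 16769 bp past the end of Fblim1, which encodes a filamin-binding adhesion protein, with Spen 20649 bp away on the other side. The next scored 1147, at chr2:164454833-164455275, 1876 bp before the start of Sys1, a Golgi protein gene, and 11866 bp from the syndecan gene Sdc4. A site of score 1053, chr16:33950954-33951334, stood 1806 bp past the end of Itgb5, an integrin beta subunit. These were the 3 sites that reached 1000.

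Igsf8, a tetraspanin partner, had a site of score 921 at 4242 bp before its start, and Foxo3, a forkhead factor of stress and starvation responses, had one of the same score at 1455 bp before its start. Sites of score 900 near Irf2bp2, 888 near Emx2, 880 near Cldn3 and 845 near Elf3 followed. Emx2 is a homeobox gene of the developing urogenital tract, and its site, chr19:59457421-59457815, stood 1072 bp before its start. Cldn3 encodes a tight junction claudin, and its site lay 2455 bp past the gene's end, inside the non-coding gene Wbscr25. Elf3 encodes an epithelial ETS factor, and its site, chr1:135233903-135234254, lay 19496 bp past the gene's end and the next C/EBP beta peak was 778611 bp away.

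The remaining best-scoring sites were near Wnt16 (822), Selenbp1 (810), Synpo (803), E2f6 (799), Syde2 (727), Pfkfb3 (720) and Setd5 (720). Pfkfb3 makes the enzyme that sets the level of fructose 2,6-bisphosphate, and its site was 6701 bp past the gene's end. The Setd5 site lay inside Gt(ROSA)26Sor, the non-coding gene widely used as a safe harbour. Of the 16 sites up to rank 15, 11 were within 10 kb of a gene end, against 280 of all 632 (44.3%), which was not tested. Over all 632 sites the Spearman correlation of score with distance was -0.0388. Of the same 16, 8 lay before a gene start and 7 past a gene end.

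The 632 sites had 577 nearest genes, which is 2.67% of 21631 protein-coding genes. Most of these genes, 532, had 1 site, 38 had 2 and 7 had 3 or more. Irf2bp2, a corepressor gene, had sites of 900, 587 and 386, the first 37227 bp past its end and the others 2419 and 20443 bp before its start. Its paralog Irf2bpl had 4 weaker sites, 3 past its end with scores of 67, 91 and 185 and 1 before its start with 186. St3gal1, a sialyltransferase gene, had sites of 693, 102 and 606 at 1340, 19509 and 39575 bp.

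Cldn8, which encodes a claudin of the distal nephron and collecting duct, had a run of 3 sites at chr16:88572980-88573218, chr16:88576245-88576577 and chr16:88583426-88583636. They scored 272, 693 and 206 and stood 9916, 13228 and 20348 bp from the gene. A further peak without a vehicle peak, score 150, stood 158 bp from an end of Cldn8. Cyp1b1, a cytochrome P450 gene regulated by the aryl hydrocarbon receptor, had sites of 446, 134 and 31 in a row before its start, with steps of 621 and 4390 bp between their centres. Cyb5b, an outer mitochondrial membrane cytochrome gene, had sites of 116, 125 and 93 on both sides.

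**Figure D3:**
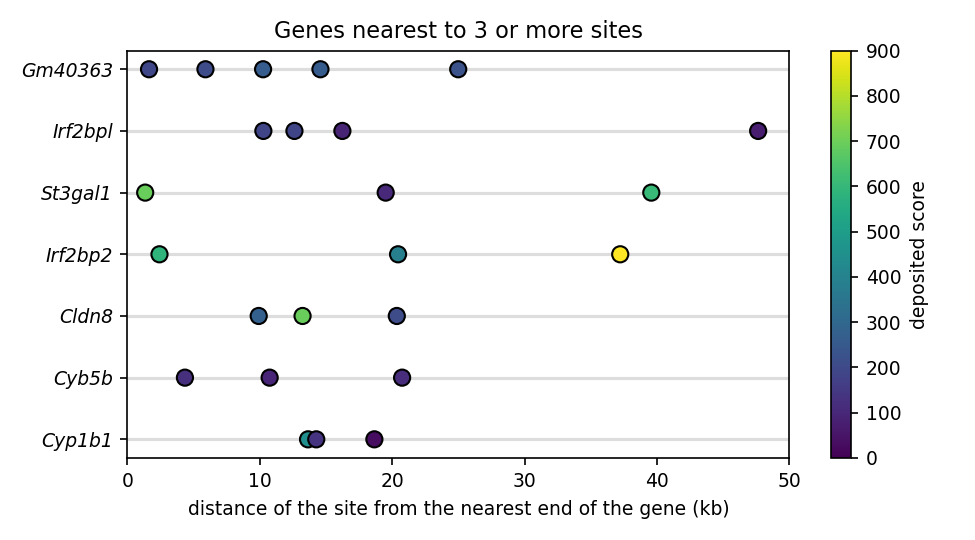
Distance (kb) from the nearest gene end of each site at the 7 genes with 3 or more sites, coloured by deposited score. Irf2bp2 and St3gal1 hold strong sites both near the gene and over 37 kb away, and 4 of the 5 sites at Gm40363 follow each other at steps of 4262 to 4355 bp.

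Another C/EBP beta peak after dDAVP lay within 10 kb of 75 sites (11.9%, Wilson interval 9.57 to 14.6). The same share was 7.73% for gene ends (5.56 to 10.7), 9.58% inside genes (7.82 to 11.7), 3.66% far from genes (1.94 to 6.81) and 12.9% for peaks also in the vehicle list (9.03 to 18.1). Of the 75, the nearest other peak was intergenic too for 52, at a gene end for 8, inside a gene for 7 and a peak also in the vehicle list for 8. The intergenic sites formed 26 runs of 2 or more within 10 kb steps. Without the repeated array on chromosome 6 described below, 10.7% of the intergenic sites had another peak within 10 kb. The other classes were not recomputed without it.

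Some of these genes had further C/EBP beta peaks after dDAVP. Of the 577 genes, 117 (20.3%) were also the nearest gene of a peak outside this set, against 6.88% of all protein-coding genes. For 56 (9.71%), such a peak had no vehicle peak and lay inside a protein-coding gene, over 1000 bp from any gene end, against 3.55% of all. These genes had the end nearest to the peak, and the peak may lie inside another gene. A peak within 1000 bp of an end was found at 24 (4.16%), against 2.18% of all. Neither the length of genes nor that of their flanks enters these shares. All protein-coding genes also include 1465 olfactory and vomeronasal receptor genes, which had 2 intergenic sites. Whether peaks gather at the same genes was not tested. At Ndrg1, a stress-induced gene, Hmox1, heme oxygenase, Dhrs9, a retinol dehydrogenase, and Stau2, an RNA-binding protein, the peak at the gene end was also in the vehicle list. The Hmox1 peak at the gene end scored 1408, and its intergenic site scored 208 at 9703 bp. Cebpb itself had both, a peak of score 101 at 259 bp and a site of score 88 at 20302 bp past its end. Gadd45a, a growth arrest gene, had a score of 375 at 491 bp and of 375 again at an intergenic site 31975 bp before its start. The other genes with both included Grhl2, Fosl1, Psat1, Gars, Mars1 and Rgs2.

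The nearest genes were then read against 17 lists of functions. In each of the 17 lists the share of genes with a site was above the 2.67% of all protein-coding genes, and in 12 the Wilson interval lay above it. Genes with an established symbol, leaving out predicted genes and the olfactory and vomeronasal receptors, had a share of 2.93%. The lists hold well-studied regulated genes, and neither activity in these cells nor the length of the flanks enters this share. Set against the intergenic sequence beside the listed genes, sites per Mb were above 1.06 in 17 lists, with an interval above it in 9. On that measure the intervals of the collecting duct (1.00 to 7.20), glucocorticoid (0.957 to 8.99) and actin lists (0.795 to 7.47) also held 1.06. The lists were chosen with earlier results of these data known, and that choice could itself raise their shares. The shares therefore describe the lists and support no link with a function. No list was tested, and since all of them lie on the same side, none is singled out.

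**Figure D4:**
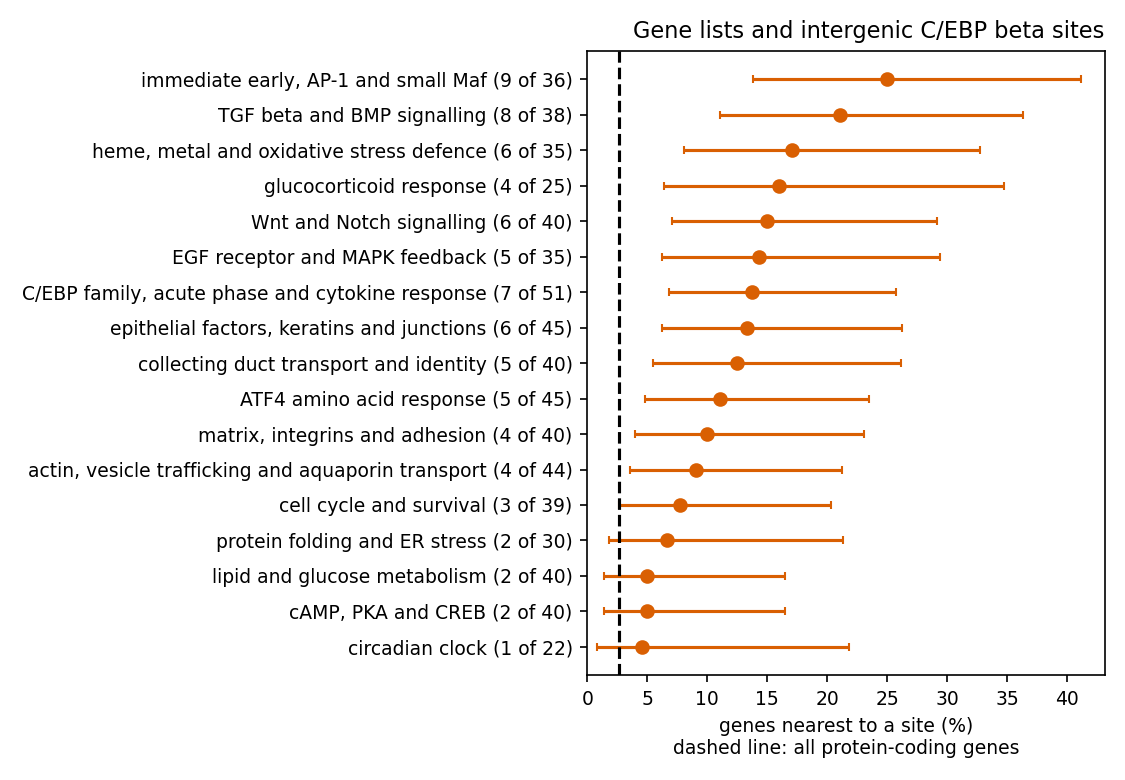
Share of the genes of each list that were the nearest gene of a dDAVP-only intergenic site, with 95% Wilson intervals. The dashed line marks 2.67%, the share of all protein-coding genes. The shares run between 4.55% for clock genes and 25% for immediate early genes, and all points lie right of the line.

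Collecting duct genes had a site at 5 of 40 (12.5%). The highest score was at Emx2, and the others included Nr3c1 (329, 5866 bp), the glucocorticoid receptor, and Tfcp2l1 (96, 4746 bp), a collecting duct transcription factor. Epithelial factor, keratin and junction genes had one at 6 of 45 (13.3%). Besides Cldn3, Elf3 and Cldn8 these included F11r (364, 6204 bp), a junctional adhesion molecule, and Grhl2 (65, 30651 bp), a grainyhead factor. Among genes followed whatever their values, those nearest to a site included Elf3, Grhl2 and Cebpb, and those not nearest to any included Aqp2, Myc, Sgk1, Scnn1a, Kcnj1, Ehf, Gata3, Fos and Per1.

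Immediate early, AP-1 and small Maf genes had a site at 9 of 36 (25%, 13.8 to 41.1). Ier5, an early response gene, had sites of 634 and 161 past its end, and Ier3 one of 539 at 44663 bp before its start. Btg1 (504, 10114 bp), an antiproliferative gene, Fosl2 (284, 25656 bp), an AP-1 subunit, and Egr2 (226, 44444 bp), a zinc finger factor, followed. TGF beta and BMP genes had a site at 8 of 38 (21.1%, 11.1 to 36.3). Id3 (661, 26555 bp) and Id1 (249, 4249 bp) encode inhibitors of helix-loop-helix factors, Smad3 (634, 35872 bp) a receptor-driven effector, Smad7 (340, 3900 bp) an inhibitory Smad and Tgfbr3 (399, 6639 bp) a coreceptor.

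Of the C/EBP family, acute phase and cytokine genes, 7 of 51 (13.7%) had a site. Nfkb1 (550, 37732 bp) encodes an NF-kappa B subunit, Csf1 (425, 33215 bp) a macrophage growth factor and Cxcl5 (241, 5239 bp) a chemokine. Nfkbiz (105, 41079 bp) and Socs3 (96, 31699 bp), the feedback inhibitor of cytokine receptors, scored lower. Heme, metal and oxidative stress genes had a site at 6 of 35 (17.1%), with Fth1 (293, 25827 bp), ferritin heavy chain, Nfe2l1 (244, 1783 bp), a stress factor of the NRF family, Hmox1 (208), Prdx1 (131, 12701 bp), a peroxiredoxin, and Hif1a (109, 32572 bp), the hypoxia factor.

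Wnt and Notch genes had a site at 6 of 40 (15%). Fzd4 (653, 6095 bp) encodes a Wnt receptor, Notch3 (535, 3073 bp) a Notch receptor, Dll1 (307 and 160) a Notch ligand, Hes1 (263, 31570 bp) a Notch target and Sox4 (241, 35088 bp) an HMG box factor. Glucocorticoid response genes had one at 4 of 25 (16%), Foxo3, Klf9 (320, 5473 bp), a Krüppel-like factor, Ddit4 (170, 5894 bp), an mTOR inhibitor, and Cpeb4. EGF receptor and MAPK genes had one at 5 of 35 (14.3%), with Spred2 (411, 4252 bp), a MAPK inhibitor, Ets2 (399 and 281, on either side of the gene), an ETS factor, Plau (160, 2543 bp), urokinase, Btc (79, 5375 bp), an EGF receptor ligand, and Ets1 (49, 6459 bp).

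ATF4 pathway genes had a site at 5 of 45 (11.1%). These were Sesn2 (318, 3644 bp), a stress-induced sensor of leucine, Gars (181, 21536 bp) and Mars1 (84, 1214 bp), both aminoacyl-tRNA synthetases, Ddit4 and Psat1 (127, 10718 bp), an enzyme of serine synthesis. Matrix and adhesion genes had one at 4 of 40 (10%), Itgb5, Tgm2 (465, 16806 bp), a transglutaminase, Col4a1 (209 and 201), a basement membrane collagen, and Spp1 (96, 15381 bp), osteopontin. Actin and trafficking genes had one at 4 of 44 (9.09%), Tpm1 (320, 22786 bp), tropomyosin, Rnd3 (242, 28714 bp), a small GTPase, Anxa1 (134, 12326 bp), an annexin, and Ezr (90, 26208 bp), ezrin.

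In the other 5 lists the interval held 2.67%. Cell cycle and survival genes had a site at 3 of 39 (Gadd45a, Cdkn1b with 179 and Bcl2 with 78), and protein folding genes at 2 of 30 (Pdia4 with 195 and Hspa5 with 131). The cAMP and protein kinase A list had 2 of 40, Akap13 (286, 39802 bp), a kinase anchor, and Rgs2 (273, 3405 bp), a G protein regulator. Lipid and glucose genes had 2 of 40, Pfkfb3 (720 and 71) and Irs1 (131), and clock genes 1 of 22, Bhlhe40 (160).

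CREB1 seldom lay beside these sites, as was also so for peaks inside genes and far from genes. Its lists held 406 peaks after dDAVP and 785 after vehicle. A CREB1 peak of either treatment was within 1000 bp of 8 sites (1.27%, 0.643 to 2.48). Among peaks without a vehicle peak, the share was 11.9% at gene ends (9.20 to 15.4) and 1.01% inside genes (0.535 to 1.92). It was 0 of 246 far from genes (upper bound 1.54%) and 2.39% for peaks also in the vehicle list (1.03 to 5.48). At Foxo3 the CREB1 peaks were 26 bp away after dDAVP and 14 bp after vehicle. A site of score 179, 1955 bp from Rabepk, overlapped CREB1 peaks of both treatments, and a site of 287 near Map1lc3b, an autophagy gene, overlapped one after vehicle. The sites near Eapp (349) and Slc25a28 (145) had a vehicle CREB1 peak 184 and 766 bp away. The other 3 were near Gm40363, and without them and the rest of the array described next the share was 0.801%.

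That array was on chromosome 6, where 14 C/EBP beta peaks stood in a row between 47654946 and 47772154. Of these, 8 were intergenic sites of this set and 6 were inside predicted genes. The steps between neighbouring centres were 4262 to 4355 bp, with a median of 4328, in 10 of 13 cases. The other 3 were 54606, 10408 and 8754 bp. Scores were alike, between 116 and 261. The first peak overlaps Rn4.5s, annotated from 47654921 to 47655094, a gene of 4.5S RNA, a short RNA of rodents whose genes lie in a tandem array. CREB1 had 5 peaks after vehicle and 1 after dDAVP in the same row, and the C/EBP beta vehicle list had 0. Reads from near-identical copies cannot be placed with confidence, so the number of sites here is uncertain. The Pdia4 site is the last of the row.

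**Figure D5:**
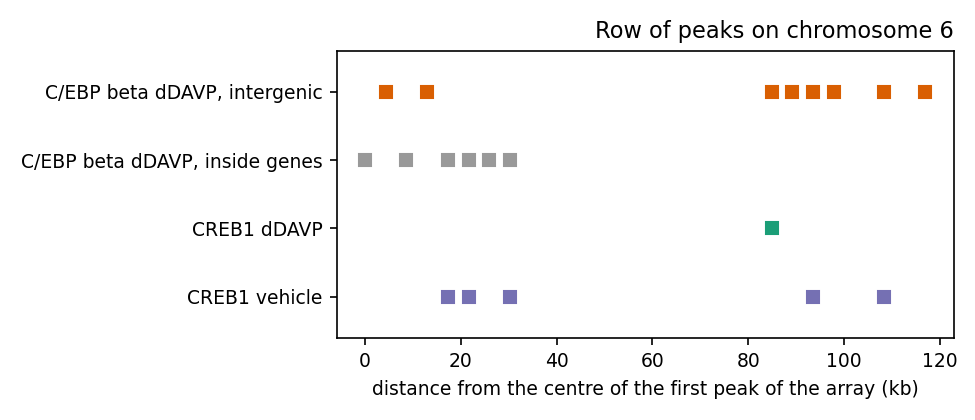
Centres of the peaks on chromosome 6 in kb from the first peak of the row. The C/EBP beta peaks after dDAVP repeat at steps of about 4328 bp, whether intergenic or inside predicted genes, and CREB1 peaks fall at some of the same places.

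Transfer RNA genes, which RNA polymerase III transcribes, lay within 200 bp of 7 intergenic sites (1.11%, 0.538 to 2.27), of 7 of the peaks at gene ends (1.64%, 0.796 to 3.34), of 0 of the 887 peaks inside genes (upper bound 0.431%), of 0 of the 246 far from genes (upper bound 1.54%) and of 3 of the 209 also in the vehicle list (1.44%, 0.489 to 4.13). Of the intergenic sequence in the same range of distances, 0.0292% lies within 331 bp of a tRNA gene, the distance at which the edge of a peak of median width comes within 200 bp. The highest of the 7 intergenic sites scored 604, at n-TNgtt12, 27373 bp from Hjv. None of these 7 had a CREB1 peak within 1000 bp. Long non-coding RNA genes held the centre of 149 sites (23.6%, 20.4 to 27.0), while 12.1% of the intergenic sequence in the same range of distances lies in such genes. Far from genes the share was 22.4% (17.6 to 28.0). A site of score 170 lay in Neat1, the scaffold RNA of paraspeckles, and one of 284 in Ftx, a regulator of X inactivation. In all, 471 of the 632 sites lay outside every annotated gene, coding or not.

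At the bounds of the rule, the sites just inside 1000 bp were near 4930523C07Rik (1017 bp, score 411), Arid5b (1039 bp, 179) and Atp6v0a1 (1054 bp, 548), and the peaks just outside near Zfp687 (958 bp, 83), Spred1 (956 bp, 295) and Tmod3 (862 bp, 88). At the far bound the last sites were near Abcd3 (49516 bp, 108), Lmntd1 (48961 bp, 497) and Irs1 (48813 bp, 131), and the first peaks beyond it near Sh3bp4 (50141 bp, 263), Foxq1 (51248 bp, 152) and Nr2f2 (51277 bp, 88). The sites nearest to a vehicle peak were 302 bp from one near BC035044, and 932 and 1402 bp from one near Frmd8. The intergenic peaks left out for the smallest overlaps with a vehicle peak were near Rprd1b (139 bp), Elf2 (171 bp) and Plekhm2 (175 bp). In this range of distances 54 peaks were left out for such an overlap, with a median score of 1138.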

How the data were processed

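Chromatin bound by C/EBP beta or CREB1 was sequenced after dDAVP or vehicle, with 22 samples in all, inputs included. The submitters' processing notes list BWA, SAMtools, MACS2, bedtools and build mm10, without versions. The 4 deposited peak lists give mm10 positions, other values in them being the score of the C/EBP beta lists. This score was set by the authors on an unstated scale. The deposited peak names refer to replicate 1 and record MACS2 with bandwidth 300, a duplicate limit of 1 and a q cutoff of 0.01. How replicates were combined is not given in the sources used here.

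Peaks were placed on 21631 protein-coding genes of RefSeq GRCm38.p6 with Python 3.11.15, pandas 2.3.3 and scipy 1.17.1; the placement was checked on simulated data. Positions count from 1. Strand and sequence came from RefSeq promoter windows. Intergenic sequence was counted between the outermost genes of 20 chromosomes. Shares have Wilson intervals, densities exact Poisson intervals and medians intervals from order statistics, all at 95% and covering counting error only; no test was run, since peaks are not replicates. Sites, lists and rules were chosen with earlier results of these data known. All entries of the 17 lists were found by symbol or synonym. Named genes were those of the 15 best-scoring ranks, those with 3 or more sites, up to 5 per list by score, sites near CREB1, sites at the bounds and a few genes followed in any case, some of which are not reported here; genes with a second peak and the tRNA and non-coding genes named were chosen after their values were seen.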

Additional observations from a re-analysis of the deposited data

How the results depend on the processing

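Values were recomputed with a stricter vehicle criterion, the upper 50% of scores, peaks of at least 100 bp, all annotated genes, other bounds, and, chosen after seeing the data, without the chromosome 6 array. Of 64 recomputed values, 49 stayed within 1.5 times the count or within the interval of the reported value and 15 moved. In the upper 50% of scores there were 302 sites, 284 nearest genes, a median score of 320, 15.2% with another peak within 10 kb and 0.508 sites per Mb; the score median is raised by the selection itself. With all annotated genes the median distance was 7380 bp, the share with another peak within 10 kb 9.01% and the density 0.643 per Mb. An inner bound of 5000 bp gave a median distance of 17005 bp and 0.954 sites per Mb, and an outer bound of 20000 bp gave 6852 bp and 1.24 per Mb. Another peak lay within 5000 bp of 7.28% of sites, and a CREB1 peak within 10000 bp of 3.64%. The share of lists above all genes was 15 to 17 of 17. In the upper 50% of scores, TTNCNNAA was in 2 of 2 stretches (100%). No paired analysis was possible because each group has 1 pooled peak list, and for the same reason no replicate could be left out. The planned motif search in 200 bp of every site was not run, since it needs a genome sequence; the 100 bp stretches replaced it. Unknown read depth limits every statement on missing peaks.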

Other observations

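The sites were spread unevenly over chromosomes. Chromosome 19 had 2.31 sites per Mb of the same intergenic sequence (exact 95% Poisson interval 1.61 to 3.21) and chromosome 15 had 2.05 (1.47 to 2.78), against 1.06 over all chromosomes. Chromosome 7 had 0.239 (0.119 to 0.427), with 11 sites, and X had 0.0882 (0.0240 to 0.226), with 4 sites. The whole C/EBP beta dDAVP list had 62 peaks on chromosome 7, which carries 2030 protein-coding genes, and 132 on chromosome 19, which carries 705. On X, which carries 966, the whole list had 20 peaks and the CREB1 vehicle list had 0. Low counts on X were thus not particular to the intergenic sites.

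Olfactory and vomeronasal receptor genes, looked at after these counts were seen, had 2 sites in 39.4 Mb beside 1465 genes, or 0.0507 per Mb (0.00614 to 0.183), against 1.14 beside all other genes (1.05 to 1.23). Chromosome 7 holds 417 of these receptor genes. Beside its other genes it had 0.325 sites per Mb (0.162 to 0.582), and X had 0.0893 (0.0243 to 0.229). Why these chromosomes had few sites was not tested. Copy number of the chromosomes in this line was not analysed here.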
